A study of Arabidopsis thaliana with 9 samples.

Results

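ARF10 seeds of Arabidopsis thaliana carry a transgenic copy of AUXIN RESPONSE FACTOR10, and 63 probe sets of the 22746 non-control probe sets on the array stood apart in them from both other genotypes. Of these, 12 were high and 51 were low in ARF10 seeds. The study compared seeds of 3 genotypes, each on 3 arrays. Wild-type seeds were of the accession Col-0. ARF10 seeds held ARF10 under its own 3 kb upstream region, with 2.3 kb of coding region fused to the green fluorescent protein (ARF10:ARF10-GFP). mARF10 seeds held the same construct with 4 mutations in its target site for microRNA160 (ARF10:mARF10-GFP). The labels give no recipient accession and no number of transgenic lines, so it is unknown whether a genotype is 1 line or several. All seeds lay with 3 ml of water at 4 °C in darkness for 3 days and then in light at 22 °C for 22 h, and each sample held 3 seed lots. Replicates are labelled as independent and biological, and their parent plants are not described.

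A probe set was a member when its mean log2 signal over the 9 arrays was at least 5.72, when every ARF10 array lay above or every ARF10 array lay below the other 6 arrays, and when the ARF10 mean differed from the mean of those 6 by at least 0.4 on the log2 scale. In addition, the Col-0 mean had to lie near the mARF10 mean. This was measured as the ratio of Col-0 minus ARF10 over mARF10 minus ARF10, which is 0 where Col-0 equals ARF10 and 1 where Col-0 equals mARF10, and it had to exceed 0.75. The chitinase gene AT2G43590 and the late embryogenesis abundant gene M17 met the rule and were left out. The rule chose 0.0753% of the 15934 probe sets with enough signal as high and, with both left-out genes, 0.333% as low. All 3 ARF10 arrays lay above the other 6 in 2.37% of these probe sets and below them in 1.69%. All 9 arrays were used to choose the members, so their differences are given as descriptions with no test. The annotation named 1 gene for 31 members, 8 high and 23 low. The other 32 are given by probe set.

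Auxin response factors are transcription factors that bind auxin response elements in promoters, and ARF10 belongs to the group that acts mainly by repression. MicroRNA160 guides the cleavage of the messages of ARF10 and its close relatives, which limits their level. In a germinating seed, messages made during maturation for storage proteins, oil bodies and protection from drying decline, while those for reserve use, growth and greening accumulate. No sequence of these genes or probes was among the files, so none is shown.

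The median log2 signal of an array was 7.06 to 7.11. Col-0 replicate 2 stood apart, with a mean correlation of 0.975 with the other arrays over the 15934 probe sets that passed the signal filter, against 0.988 to 0.990 for each other array. The 3' minus 5' differences of the GAPDH, actin and ubiquitin control probe sets, which follow RNA integrity, ran from 0.28 to 0.40, 1.65 to 1.84 and 1.03 to 1.08 on ARF10 arrays. Those ranges lay within the ones over the other arrays, which were 0.21 to 0.56, 1.64 to 2.04 and 1.03 to 1.101. ICL, the isocitrate lyase gene of reserve use in germinating seeds, had log2 signals of 14.63 to 14.78 on every array. The upper value is the highest of all deposited signals, and whether signals this high could still differ was not tested. BAN, a seed coat gene, lay at 6.33 to 6.68. None of the stored seed protein, endosperm or green seedling markers on the marker lists was named by the annotation used here, so the seed parts in a sample could not be checked further.

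Among the named low members the largest deficit was in PAP85. PAP85, a storage protein gene of the vicilin family, was at log2 signals of 7.29, 7.75 and 6.57 on the ARF10 arrays, at 8.14, 10.23 and 10.76 on the Col-0 arrays and at 11.43, 9.65 and 10.55 on the mARF10 arrays. The ARF10 arrays lay below all others, Col-0 and mARF10 overlapped, and Col-0 replicate 1 lay far nearer to ARF10 than the other Col-0 arrays did. The ARF10 mean minus the mean of the other 6 arrays was -2.92 on the log2 scale, a 7.58-fold difference. Each sample is a whole seed extract, in which fewer cells of a type and less RNA per cell cannot be told apart. AT2G28490, which encodes another cupin of the vicilin type, was at 6.31, 6.95 and 5.69 in ARF10, at 7.63, 9.09 and 9.70 in Col-0 and at 10.06, 8.98 and 9.03 in mARF10 seeds. Its log2 difference from the other 6 arrays was -2.76, again with the lowest Col-0 value on replicate 1. These were the 2 members among 7 measured genes of a list of 25 seed storage protein and oil body genes, so most of the list was not seen. All 7 genes had a negative ARF10 difference and their median was -1.097, against 0.02 over all tested probe sets. The rule chose the 2 members by this difference, and the median of the other 5 genes was -0.92. The list was made with earlier results of these data known, so these medians are descriptions only. Of the 7, 1 was called between ARF10 and mARF10 in the limma fit described further on, and 0 against the mean of both other genotypes. Over all tested probe sets these shares were 0.408% and 0.0879%.

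The storage and oil body genes that were not members followed the same arrays only in part. The mean log2 signal of these 5 genes was 7.71, 8.12 and 7.71 on the ARF10 arrays, 8.03, 8.72 and 8.59 on the Col-0 arrays and 9.45, 8.82 and 8.89 on the mARF10 arrays. As in PAP85, this mean was lowest in Col-0 and highest in mARF10 on replicate 1. In Col-0 it was highest on replicate 2, where PAP85 was highest on replicate 3. OLEO3, an oleosin of the oil body, had all its ARF10 arrays below the other 6 but missed the ratio. Its Col-0 mean of 9.60 lay between 9.31 in ARF10 and 10.40 in mARF10. Its Col-0 signal was highest on replicate 1, at 9.71, 9.51 and 9.59.

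Low members also included genes for proteins that protect the drying seed. M10, a late embryogenesis abundant (LEA) gene and the next protein-coding gene to M17 on chromosome 2, was at log2 signals of 5.85, 6.95 and 5.86 in ARF10, 7.25, 9.21 and 9.60 in Col-0 and 9.70, 9.29 and 8.72 in mARF10 seeds. ARF10 replicate 2 lay 0.29 below the nearest array of another genotype, Col-0 replicate 1. The log2 difference of M10 between ARF10 and the other 6 arrays was -2.74. AT3G53040, of the LEA family, was at 6.82, 7.45 and 6.71 in ARF10, 7.70, 8.95 and 8.81 in Col-0 and 8.99, 8.49 and 8.38 in mARF10, a log2 difference of -1.56. It is one of the few named members that the rule still chose whichever array was left out. AT4G25580, which encodes a protein of the CAP160 family of stress-induced proteins, differed less, at 6.003, 5.95 and 5.94 in ARF10, 6.13, 6.54 and 6.79 in Col-0 and 6.93, 6.31 and 6.30 in mARF10 seeds, a log2 difference of -0.53.

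Of 22 measured LEA genes, from a list of 33, M10 and AT3G53040 were the 2 members. All 22 had a negative ARF10 difference, with a median of -0.76. The rule chose the 2 members by this difference, and the median of the other 20 genes was -0.74. The share of negative differences over all tested probe sets was not counted, so nothing is read from the 22. The 2 with every ARF10 array below the other 6 were these members, for which the rule required it. Over all tested probe sets that share was 1.69%. Over the 20 that were not members, the mean log2 signal was 8.45, 8.75 and 8.41 on ARF10 arrays, 8.50, 9.78 and 9.33 on Col-0 arrays and 9.58, 9.39 and 9.07 on mARF10 arrays. In these 20 genes the mean on Col-0 replicate 1 lay within the range of the ARF10 arrays. In limma 1 of the 22 was called between ARF10 and mARF10, and 0 against the mean of both other genotypes. The shares over all tested probe sets were 0.408% and 0.0879%.

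**Figure D1:**
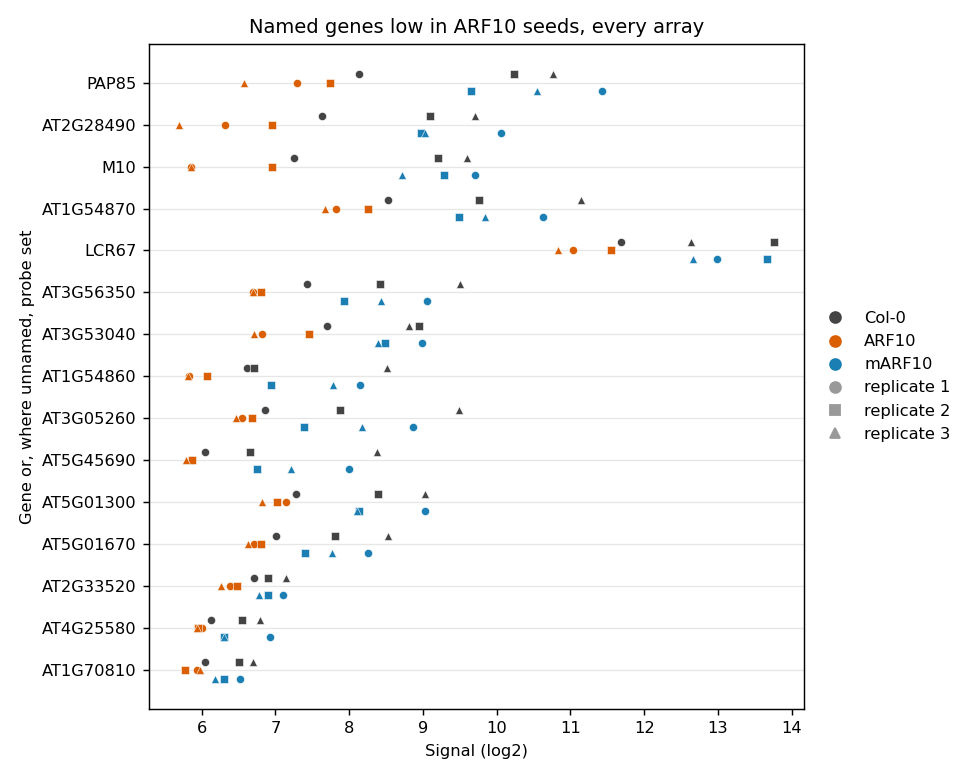
Log2 signal (x axis) of the 15 named genes with the largest deficits in ARF10 seeds (y axis), with 1 point per array, colour for genotype and shape for replicate. Every ARF10 point lies left of the Col-0 and mARF10 points, and Col-0 replicate 1 is the Col-0 point nearest to ARF10 in all 15.

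Redox enzymes formed a further group among the named low members. AT1G54870, of the short-chain dehydrogenase family, was at 7.82, 8.26 and 7.68 in ARF10, 8.53, 9.76 and 11.14 in Col-0 and 10.63, 9.48 and 9.85 in mARF10 seeds, a log2 difference of -1.98. AT3G05260, of the same family, was at 6.55, 6.68 and 6.47 in ARF10, 6.86, 7.88 and 9.49 in Col-0 and 8.87, 7.39 and 8.18 in mARF10, a difference of -1.54. In both genes the Col-0 arrays spanned over 2 log2 units while the ARF10 arrays lay within 1. AT3G56350, of the manganese superoxide dismutase family that removes superoxide, was at 6.69, 6.80 and 6.70 in ARF10, 7.43, 8.41 and 9.51 in Col-0 and 9.06, 7.93 and 8.44 in mARF10. Its log2 difference was -1.73. AT5G01670, of the aldo-keto reductase type, was at 6.71, 6.81 and 6.63 in ARF10, 7.01, 7.81 and 8.53 in Col-0 and 8.25, 7.39 and 7.76 in mARF10, a difference of -1.07. AT4G13180, another short-chain dehydrogenase, had a difference of only -0.45. This grouping was made after the values were seen and carries no count against other genes.

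LCR67, also called PDF1.1, encodes a plant defensin, a small antifungal peptide. It was at 11.04, 11.55 and 10.83 in ARF10, 11.68, 13.76 and 12.64 in Col-0 and 12.99, 13.66 and 12.66 in mARF10 seeds, a log2 difference of -1.76. Unlike PAP85 and AT2G28490, it was highest on replicate 2 in both Col-0 and mARF10. The only other measured gene of the pathogen and jasmonate list, PDF1.2, differed by 0.07 and was no member.

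Several named low members encode proteins of membranes or lipids, a grouping made after the values were seen, with no count against other genes. AT1G54860, which encodes a glycoprotein with a membrane anchor and lies next to AT1G54870 among protein-coding genes of chromosome 1, was at 5.83, 6.07 and 5.82 in ARF10, 6.62, 6.71 and 8.52 in Col-0 and 8.15, 6.94 and 7.78 in mARF10. The log2 difference was -1.55, and a single Col-0 array, replicate 3, lay far above the other Col-0 arrays. AT5G01300, of the phosphatidylethanolamine-binding protein family, was at 7.14, 7.03 and 6.81 in ARF10, 7.28, 8.40 and 9.03 in Col-0 and 9.02, 8.13 and 8.11 in mARF10, a difference of -1.34. Col-0 replicate 1 lay only 0.14 above the highest ARF10 array. AT1G48750, of the lipid transfer protein family, and AT5G17700, a transporter of the MATE family, had differences of -0.43 and -0.42. AT1G70810, of a family with a C2 lipid-binding domain, was at 5.94, 5.78 and 5.98 in ARF10, 6.05, 6.50 and 6.69 in Col-0 and 6.53, 6.31 and 6.18 in mARF10, a difference of -0.48.

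AT5G45690, which has a DUF1264 domain of unassigned function, was at 5.86, 5.86 and 5.78 in ARF10, 6.04, 6.66 and 8.38 in Col-0 and 7.996, 6.75 and 7.21 in mARF10, a log2 difference of -1.34. Its ARF10 values lay near the signal filter at 5.72, where small signals are hard to measure. AT2G33520 was at 6.38, 6.48 and 6.26 in ARF10, 6.71, 6.90 and 7.14 in Col-0 and 7.10, 6.90 and 6.78 in mARF10, a difference of -0.54. Smaller deficits were found in AT5G33300 (-0.47), AT2G05580 of a glycine-rich family (-0.46), AT4G27660 (-0.42), AT1G60610 of the S-ribonuclease binding protein family (-0.42) and AT1G31750 of a proline-rich family (-0.40). For AT2G05580 the gap between the nearest ARF10 and other arrays was only 0.0024.

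The annotation left 28 of the 51 low members unnamed, among them the largest deficits. The 4 probe sets given here were chosen after their values were seen. Probe set 248125_at was at log2 signals of 7.25, 7.60 and 6.69 in ARF10, 8.72, 10.90 and 12.08 in Col-0 and 11.93, 10.65 and 10.99 in mARF10 seeds, a 12.9-fold difference. Probe set 248520_at was at 6.17, 6.69 and 6.12 in ARF10, 7.90, 9.47 and 11.17 in Col-0 and 10.93, 8.92 and 9.99 in mARF10, a 10.6-fold difference and the widest gap between genotypes at 1.21. Within Col-0 and within mARF10 both had the same order of arrays as PAP85, with Col-0 lowest and mARF10 highest on replicate 1. Probe set 250351_at had an ARF10 mean of 5.24, below the filter, against 5.52, 7.11 and 9.30 in Col-0 seeds. Probe set 259705_at was at 7.19, 7.18 and 7.13 in ARF10, 7.80, 8.15 and 8.02 in Col-0 and 8.33, 8.12 and 7.79 in mARF10.

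Over the 51 low members, the log2 difference between ARF10 and the other 6 arrays ran from -3.69 to -0.40, with a median of -0.85. It was at least 2-fold in 22 members and at least 4-fold in 9. In 3 members the ARF10 mean was below the filter, and in 12 it lay less than 0.5 above it or below it. The median SD over the 3 arrays of a genotype was 0.13 in ARF10, 0.34 in mARF10 and 0.72 in Col-0 for these members, while over all tested probe sets it was 0.08, 0.10 and 0.14. The ARF10 SD was the smallest of the 3 in 43 of the 51 members. The rule favours probe sets whose ARF10 arrays lie close together. The share over all tested probe sets was not counted, so nothing is read from this count.

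The spread within Col-0 followed particular arrays. Of the 22 members with a deficit of at least 2-fold, all 22 had their lowest Col-0 value on replicate 1, and 19 had their highest on replicate 3. In the same 19 members mARF10 was highest on replicate 1. Relative to the ARF10 mean, the median member of the 22 was 0.70 higher on Col-0 replicate 1, 1.91 higher on replicate 2 and 3.30 higher on replicate 3, against 2.40, 1.58 and 1.79 on the mARF10 arrays. The 29 smaller deficits had medians of 0.24, 0.72 and 0.67 on the Col-0 arrays and 0.65, 0.57 and 0.37 on the mARF10 arrays. Col-0 replicate 1 lay within 0.5 of the ARF10 mean in 30 of the 51 low members, and it was the array of another genotype nearest to ARF10 in 34. The rule required the low members to be apart on every array of the other genotypes, and the steps were unequal.

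**Figure D2:**
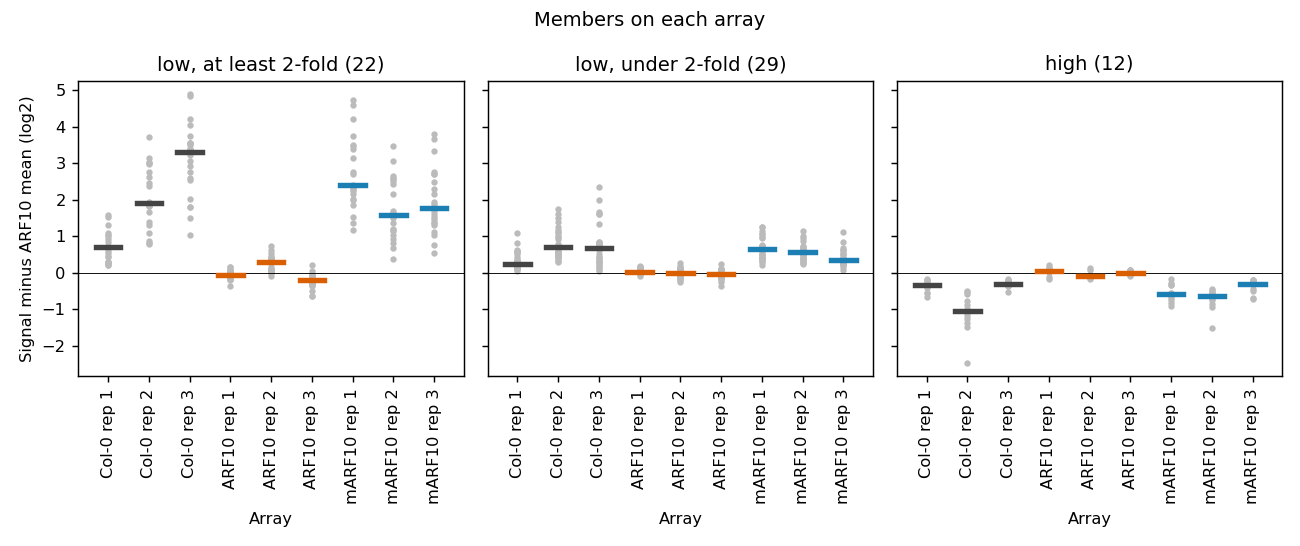
Log2 signal of each member minus its ARF10 mean (y axis) on the 9 arrays (x axis), for 22 low members with a deficit of at least 2-fold, 29 smaller deficits and 12 high members. Grey points are members and coloured bars are medians over members. In the first group the Col-0 medians spread from 0.70 to 3.30, and in the high group Col-0 replicate 2 lies lowest at -1.05.

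The Col-0 and mARF10 arrays overlapped in all 63 members, where the ratio kept the means close. Over all tested probe sets 12.4% had no such overlap. The mARF10 mean was above the Col-0 mean in 18 of the 22 low members with a deficit of at least 2-fold and in 14 of the 29 smaller ones. The ratio of the low members ran from 0.75 in PAP85 to 2.61 in 256589_at with a median of 0.95, and it was above 1.5 in 5. The comparisons of ARF10 with Col-0 and with mARF10 share the ARF10 arrays, so their likeness is no separate result.

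**Figure D3:**
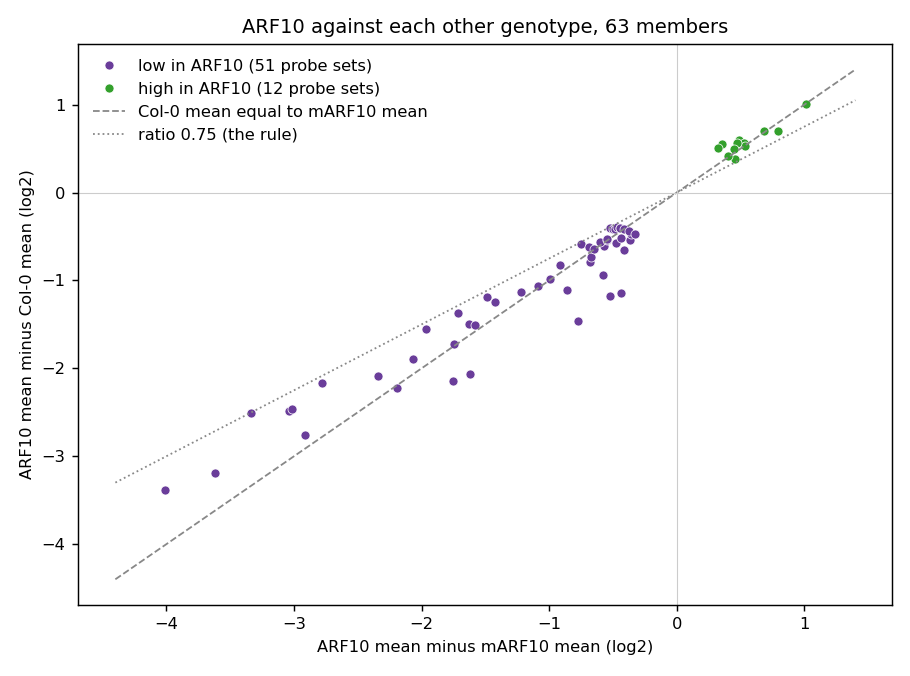
ARF10 mean minus Col-0 mean (y axis) against ARF10 mean minus mARF10 mean (x axis), both on the log2 scale, with 1 point per member. The dotted line marks a ratio of 0.75, which the rule required members to exceed, and the dashed line marks equal Col-0 and mARF10 means. The 4 largest deficits lie between these lines.

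The high members were fewer and differed by smaller steps. The difference from the other 6 arrays ran from 0.41 to 1.01 on the log2 scale, with a median of 0.52, and 1 of the 12 reached 2-fold. That was the unnamed probe set 259166_at, at log2 signals of 8.76, 8.62 and 8.71 in ARF10, 8.40, 6.24 and 8.45 in Col-0 and 7.87, 7.19 and 7.99 in mARF10 seeds. A single Col-0 array, replicate 2, lay more than 2 log2 units below the other Col-0 arrays. The next was 259180_at, also unnamed, with a difference of 0.75 and Col-0 arrays at 9.03, 7.97 and 9.26.

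Among the named high members, ATGSTF13, a glutathione transferase of the phi class that conjugates glutathione to reactive compounds, was the one with the widest gap, 0.24. It was at 7.17, 7.07 and 7.21 in ARF10, 6.48, 6.66 and 6.61 in Col-0 and 6.61, 6.61 and 6.83 in mARF10 seeds, a log2 difference of 0.52. GSTU20, the other measured gene of the glutathione transferase list, differed by -0.42 and was no member. AT5G11990, of a proline-rich protein family, was at 7.16, 7.05 and 7.14 in ARF10, 6.57, 6.22 and 6.76 in Col-0 and 6.42, 6.55 and 6.92 in mARF10, a difference of 0.54. PRXR1, a class III peroxidase that acts outside the cell, was at 11.35, 11.21 and 11.42 in ARF10, 11.16, 10.14 and 11.16 in Col-0 and 11.04, 10.85 and 11.11 in mARF10, a difference of 0.41. For PRXR1 the nearest Col-0 array lay only 0.05 below the lowest ARF10 array.

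AT2G46630 was at 7.15, 6.92 and 7.05 in ARF10, 6.66, 5.66 and 6.69 in Col-0 and 6.13, 6.38 and 6.54 in mARF10, a log2 difference of 0.69. AT3G61870 was at 9.24, 8.89 and 8.95 in ARF10, 8.84, 7.93 and 8.73 in Col-0 and 8.43, 8.32 and 8.72 in mARF10, a difference of 0.53. In both, Col-0 replicate 2 was the lowest array of all. AT1G72800, of an RNA-binding protein family, was at 9.41, 9.66 and 9.63 in ARF10, 9.01, 8.79 and 9.24 in Col-0 and 9.22, 9.13 and 9.27 in mARF10, a difference of 0.46. AT4G28080, which has tetratricopeptide repeats, was at 9.41, 9.30 and 9.36 in ARF10, 9.06, 8.85 and 9.01 in Col-0 and 9.03, 8.51 and 9.16 in mARF10, a difference of 0.42. AT2G07777 was at 7.89, 8.14 and 7.96 in ARF10, 7.66, 7.42 and 7.65 in Col-0 and 7.84, 7.38 and 7.57 in mARF10, a difference of 0.41.

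**Figure D4:**
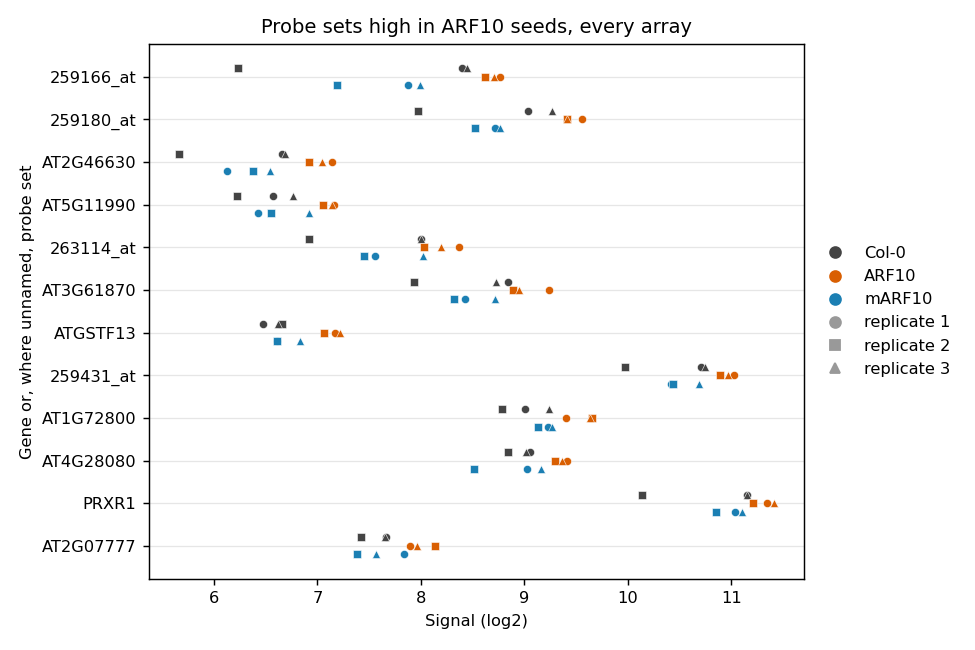
Log2 signal (x axis) of the 12 probe sets high in ARF10 seeds (y axis, gene name or probe set), with 1 point per array, colour for genotype and shape for replicate. Every ARF10 point lies right of the others, and Col-0 replicate 2 is the lowest Col-0 point in 11 of 12, all but ATGSTF13.

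Col-0 replicate 2 was the lowest Col-0 array in 11 of the 12 high members. Its signal minus the ARF10 mean had a median of -1.05 over the 12, against -0.32 and -0.31 on Col-0 replicates 1 and 3. Without that array the rule kept 2 of the 12, ATGSTF13 and AT5G11990, and 8 of the other 10 fell to a ratio at or under 0.75. The median ratio of the 12 was 0.53 without it, against 1.06 with all arrays. Photosynthesis and chlorophyll synthesis genes moved with the same array. Of 37 such genes listed, 7 were measured. Their mean log2 signal was 9.98, 8.70 and 9.74 on the Col-0 arrays, 10.17, 9.86 and 10.09 on the ARF10 arrays and 9.75, 9.45 and 10.09 on the mARF10 arrays. All 7 had a positive ARF10 difference from the other 6 arrays, with a median of 0.39, and none was a member. In PRK the ARF10 mean of 8.72 lay below the mARF10 mean of 8.86, and in PSBW the means were close, at 11.10 and 11.09. In the others the ARF10 mean lay above the mARF10 mean. The part of these genes in the result was not tested.

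The choice of low members moved most with Col-0 replicates 3 and 2. Without Col-0 replicate 3 the rule kept 26 of the 51 and 23 of the lost 25 had a ratio at or under 0.75. PAP85, AT2G28490, M10, AT1G54870, AT3G56350, AT1G54860, AT3G05260, AT5G45690, AT5G01300 and AT5G01670 were among those lost. Without Col-0 replicate 2 it kept 36 of the 51, with PAP85, M10 and LCR67 among the lost, and without Col-0 replicate 1 it kept 48. The rule kept 11 of the 51 low members whichever array was left out, 3 of them named: AT3G53040, AT2G33520 and AT1G70810. The rule also admitted other probe sets once an array was gone, and without Col-0 replicate 1 it chose 151 low ones. With the mean of each replicate number removed, which treats the numbers as pairs, all 12 high and 45 of the 51 low members were kept, among 26 high and 77 low probe sets in all.

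**Figure D5:**
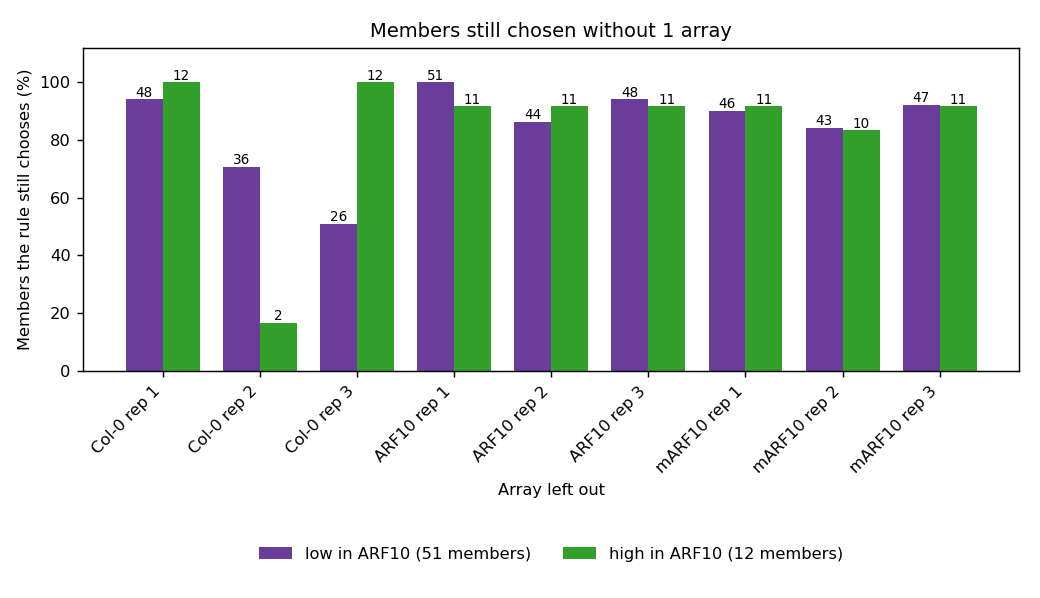
Share of members in percent (y axis) that the rule still chose when 1 array was left out (x axis), with purple bars for the 51 low and green bars for the 12 high members and the number of members above each bar. The lowest bars are 2 high members without Col-0 replicate 2 and 26 low members without Col-0 replicate 3.

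All 3 ARF10 arrays were apart by at least 0.4 in 29 probe sets above and 105 below the other 6, of which 17 and 52 missed the ratio. Applied to mARF10 in place of ARF10, the same rule chose 80 high and 32 low probe sets; applied to Col-0 it chose 3 high and 2 low, or 3 and 8 with the transgenic genotypes exchanged in the ratio. Just inside the limit on size were AT2G07777 (0.41) and AT1G31750 (-0.40), and just outside were the unnamed probe sets 264839_at (0.40, unrounded 0.397) and 246978_at (-0.39). Just inside the limit on the ratio were AT4G28080 (0.84) and PAP85 (0.751), and just outside were 245499_at (0.73) and 267181_at (0.73).

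A linear model over all tested probe sets gives the background of these choices. With limma and adjustment over all 15934 probe sets, 0 were called between ARF10 and Col-0 (0%), with 740 at an unadjusted p under 0.05. With no difference at all, a share of about 0.05 of the probe sets would pass that unadjusted threshold, so nothing is read from the 740. Between ARF10 and mARF10, 65 probe sets were called (0.408%), 50 lower in ARF10 (0.314%) and 15 higher (0.0941%). This count was 1 without ARF10 replicate 3, 2 without mARF10 replicate 1, 3 without ARF10 replicate 2, 5 without ARF10 replicate 1, 10 and 27 without mARF10 replicates 3 and 2, and 173 and 267 without Col-0 replicates 1 and 2. Against the mean of both other genotypes 14 were called (0.0879%), 13 lower (0.0816%) and 1 higher (0.00628%). The 14 became 1 with the replicate number as a block, 0 without ARF10 replicate 2 or without ARF10 replicate 3, and 84 without Col-0 replicate 1. Of the members, 1 low probe set, 259705_at, was called against mARF10 and against the mean of both, and none of the 12 high members was called. The rule used these contrasts, so the counts describe the members and carry no further support.

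Other gene lists held few measured genes. Among 3 measured iron-deficiency genes none was a member. Of these, 2 had every ARF10 array below the other 6, against 1.69% of all tested probe sets. All 3 were called between ARF10 and mARF10, against 0.408% of all tested probe sets. Against the mean of both other genotypes 0.0879% of all tested probe sets were called. AT1G47400, which encodes a small peptide of that response, passed against the mean of both other genotypes with an adjusted p of 0.0462 in limma, at a ratio of 0.52 that put Col-0 midway. No measured gene of the LEA, storage and oil body, photosynthesis, storage oil breakdown, glutathione transferase, pathogen, heat shock, auxin, gibberellin or cell wall lists passed that contrast, and no abscisic acid gene of the list was named by the annotation used here. Over the measured genes, the median difference was 0.00 for oil breakdown (3 genes), 0.08 for heat shock (2), 0.16 for auxin (2), 0.06 for gibberellin (5), 0.09 for cell wall loosening (3) and -0.93 for iron deficiency (3). In the 2 measured auxin-response genes, GH3.1 and WES1, the differences were 0.24 and 0.08. The reference genes AT2G28390 and AT4G34270 differed by -0.03 and -0.01.

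The 31 named members were all protein-coding and lay on all 5 nuclear chromosomes, the low ones with 7, 4, 4, 3 and 5 and the high ones with 1, 2, 2, 2 and 1 on chromosomes 1 to 5. Their 2 nearest protein-coding genes on each side were looked up by gene order in the TAIR10.1 gene table, from which no coordinates were taken. Apart from the pairs M10 with M17 and AT1G54860 with AT1G54870, no measured neighbour was chosen by the rule. Many neighbours were not measured under a gene name, and the 32 unnamed members could not be placed, so further pairs could have been missed. The 43 other neighbours measured on the array had differences of -0.27 to 0.24 between ARF10 and the other 6 arrays, with a median of -0.02. No named member had a further named probe set.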

How the data were processed

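Per the labels' protocols, RNA of germinating seeds was extracted with phenol and SDS, amplified and biotin-labelled. The authors deposited a log2 signal for each of 22810 probe sets on each array. Base 2 was inferred from their range of 3.70 to 14.78. The sources used here give neither the summary nor the normalization method. No further normalization was applied, and 64 control probe sets were left out.

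The filter at 5.72 is the 30th percentile of the mean over the 9 arrays, and 15934 probe sets passed it. The annotation paired 13513 non-control probe sets with 1 gene and 503 with several, and did not list 8730. Where a gene had several probe sets, the one with the highest mean stood for it in the lists. All 9 arrays were fitted with 1 mean per genotype in limma 3.58.1 (R 4.3.3), with eBayes moderation (6 residual and 3.11 prior degrees of freedom), Benjamini-Hochberg adjustment and a threshold of 0.05, 2-sided. The rule and the fit were tested on simulated data. Array number limits the precision.

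The members, the gene lists and the alternatives were chosen with earlier results of these data known. Named members are those with 1 gene; the 15 largest differences in each direction are given with every array, the others by their difference, beside probe sets next to the limits of the rule and genes of the lists with the largest differences. OLEO3, PDF1.2, PRK, PSBW, ICL and BAN were named after their values were seen. The planned motif search in promoters was not run for want of sequences.

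Deviations from genotype means correlated between same-numbered Col-0 and ARF10 arrays at 0.48, 0.49 and 0.19, all above 0.1. With mARF10 they ran from -0.17 to 0.48. The highest correlation of all, 0.61, was between differently numbered arrays, Col-0 replicate 1 and mARF10 replicate 3. Of the 9 arrays, 6 correlated best with an array of their own number. The replicate block covers all 9 arrays, and no fit paired Col-0 with ARF10 arrays alone.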

Additional observations from a re-analysis of the deposited data

How the results depend on the processing

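The rule fixes the sign of the members' differences when an array is left out, so only their size can move. The median was then 0.41 to 0.57 for the 12 high and -0.94 to -0.73 for the 51 low members. The numbers of members moved more, from 12 to 46 high and from 42 to 151 low when 1 array was left out. High counts moved by over 1.5 times without Col-0 replicate 1 (26) or 3 (31) or ARF10 replicate 2 (46), and low counts without Col-0 replicate 1 (151) or 2 (80) or ARF10 replicate 1 (82) or 2 (82). The counts were 29 and 80 at a difference of at least 0.3, 3 and 33 at 0.6, 20 and 84 at a ratio above 0.5, and 26 and 77 with the replicate block. With the filter at the 50th percentile 33 were low. With no filter, with quantile normalization, with median centring and at a ratio above 0.9 both counts stayed within 1.5 times, and median centring kept 12 of the 12 high and 40 of the 51 low members.

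In limma, ARF10 against Col-0 gave 1 call under each of quantile normalization, array weights and eBayes with trend and robust settings, and 0 to 19 when 1 array was left out, 19 being without Col-0 replicate 1. The replicate block gave 0 there. ARF10 against mARF10 gave 781 with array weights, 70 with the replicate block and 1 to 267 without 1 array, 267 being without Col-0 replicate 2 and 1 without ARF10 replicate 3; every array but Col-0 replicate 3 moved it by over 1.5 times. ARF10 against the mean of both gave 2 with no filter, 6 with quantile normalization, 6 with trend and robust settings, 204 with array weights, 1 with the replicate block and 0 to 84 without 1 array, 84 being without Col-0 replicate 1; each of the 9 arrays moved it by over 1.5 times. The cause of these shifts was not tested.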
